A study of Mus musculus with 2 samples.

Results

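The genes described here are 40 genes of glycolysis, the pentose phosphate pathway and the hypoxia response, chosen by name from the 30538 genes of the count table. All 40 were rows of the table under the listed symbol. The table holds 2 RNA-seq libraries of spleen cells. The mice had received 100000 Listeria monocytogenes, an intracellular bacterium, by vein, and the cells were taken on day 3. Each library came from about 100000 cells, sorted as CD11b-positive, Ly6G-negative and Ly6C-low, which the labels call resident splenic macrophages. The groups are C57BL/6, the wild-type strain, and Ch25h-/-, which lacks the enzyme that makes 25-hydroxycholesterol from cholesterol. Both groups were infected, and each holds 1 library. Whether several mice were pooled in a library, and the age and sex of the mice, are not given in the sources used here.

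Glycolysis splits glucose into pyruvate, and activated macrophages, dendritic cells and lymphocytes are known to raise its use. The most regulated step is made by phosphofructokinase-1 (PFK-1), whose activator fructose 2,6-bisphosphate is made by the bifunctional PFKFB enzymes. The pentose phosphate pathway branches from glycolysis after hexokinase and supplies NADPH, which the phagocyte oxidase uses, and ribose for nucleotides. The transcription factor HIF-1 raises many of these genes in low oxygen, and in myeloid cells also during inflammation. Its alpha subunit is marked for destruction by the prolyl hydroxylases of the Egln genes.

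The members took a small and similar share of each library. They held 129933 of 16957371 counts in the C57BL/6 library, or 0.766% (exact binomial 95% interval 0.762 to 0.770%). In the Ch25h-/- library they held 116768 of 15986392 counts, or 0.730% (0.726 to 0.735%). At least 1 count was seen for 15410 and 15579 genes. Levels are given as CPM, the TMM-scaled count relative to the size of the library. Levels of different genes are compared as CPM per kb of exon, except where a rank or sum by CPM is stated. The ratio is Ch25h-/- over C57BL/6 on the log2 scale, with an exact 95% interval that covers counting error only. Since each genotype has a single library, no difference could be tested against the spread of replicates, and every comparison below is of these 2 libraries. A gene was measured when its mean was at least 1 CPM, and it is called higher or lower when its ratio is at least 2-fold and its interval lies on 1 side of 0. In bulk RNA, fewer cells of a type and less RNA per cell cannot be told apart.

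The targeted gene does not check the labels at this depth, since Ch25h had 3 counts in the C57BL/6 library and 0 in the Ch25h-/- library. The sorted cells carried the gate's integrin gene Itgam at 706 and 877 CPM. All 12 red pulp macrophage markers were measured, with a summed level of 616 CPM in C57BL/6 and 378 CPM in Ch25h-/-. Among them Adgre1, the gene of F4/80, stood at 39.7 and 23.4 CPM. The 10 NK cell markers summed to 12688 and 20446 CPM, with Gzmb at 4356 and 7429 CPM. Per kb of exon, the NK cell markers summed to 8081 and 12978 CPM per kb and the red pulp macrophage markers to 221 and 130 CPM per kb. NK cell markers thus exceeded red pulp macrophage markers in both libraries. They also exceeded the markers of Ly6C-low monocytes, at 588 and 604 CPM per kb. These lists do not bear out the label of a pure macrophage sample, although sums over different genes do not measure numbers of cells. The values below are therefore described as those of the sorted population.

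Of the 40 members 38 were measured, and 3 of them were called lower (7.89% of the measured members, against 5.77% of all 11972 measured genes). These 3 are also all the members called in either direction (background 7.84%). They were the enolase gene Eno2 and the PFKFB genes Pfkfb3 and Pfkfb2. No member was called higher, against 2.07% of all measured genes. The median log2 ratio of the measured members was 0.03, and that of all measured genes was 0.015. The interval lay wholly below 0 for 12 members (31.6%, against 27.5% of all measured genes) and wholly above 0 for 14 members (36.8%, against 31.0%). These shares lie near the background, so the members as a list did not stand apart in these libraries. Of the measured members 31 lay within 0.5 of 0 on the log2 scale (81.6%, against 75.8% of all measured genes). Lactate dehydrogenase B (Ldhb, 5 and 3 counts) and adrenomedullin (Adm, 9 and 14 counts) were not measured.

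**Figure D1:**
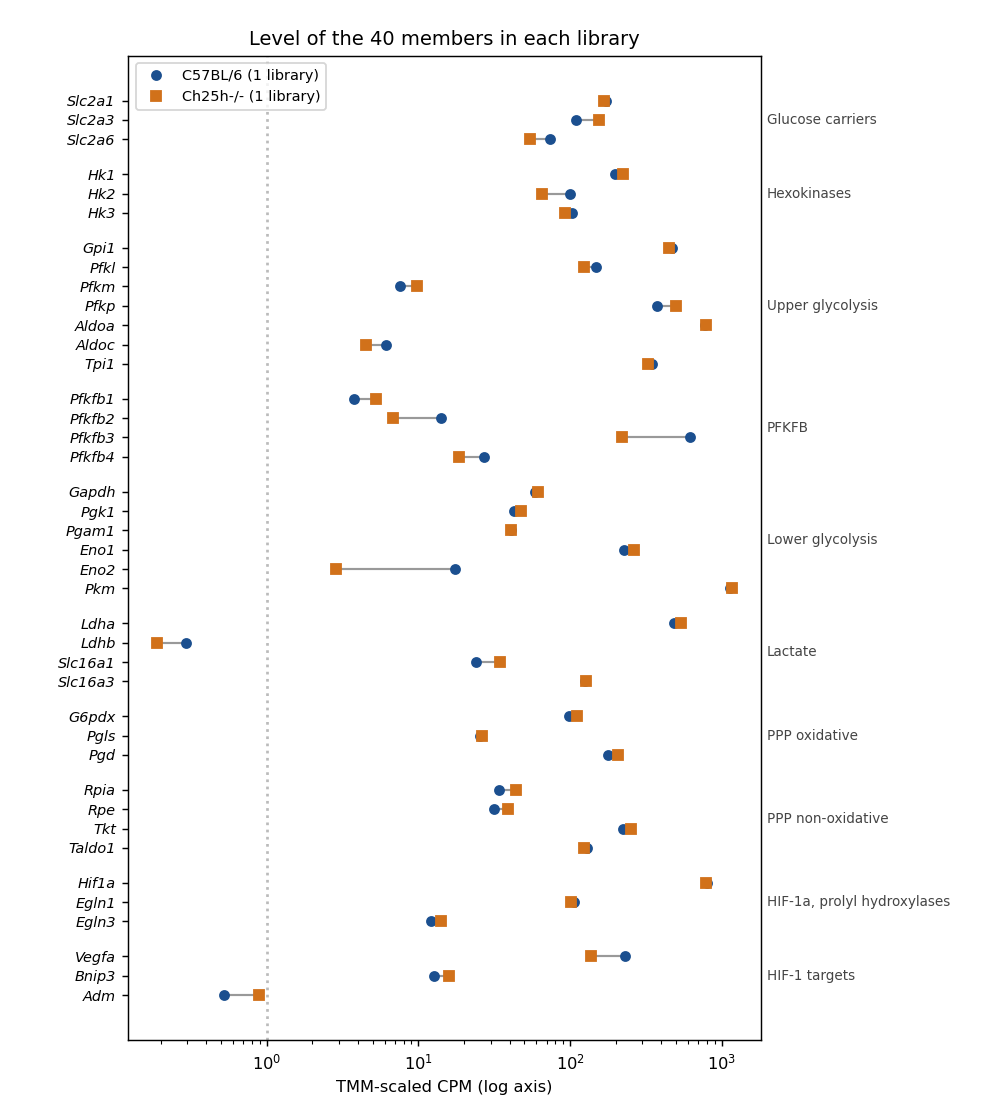
TMM-scaled CPM (log axis) of each of the 40 members in the C57BL/6 library (circles) and the Ch25h-/- library (squares), grouped by role, with a dotted line at 1 CPM. Most pairs of symbols nearly coincide, while Pfkfb3 (617 and 221 CPM) and Eno2 (17.4 and 2.84 CPM) are far apart.

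Promoters are shown for the 2 members with the steepest decreases, for Hk2 (log2 ratio -0.63) and for Ldha (log2 ratio 0.16). Pfkfb2 (-1.06) and Vegfa (-0.75) had lower ratios than Hk2, and their windows are not printed. HIF-1 binds a short core motif, ACGTG or GCGTG, and glycolytic genes are its textbook targets. Each window runs from 250 bases before to 50 bases after an annotated start in RefSeq (GRCm38.p6), 5′ to 3′ on the gene's strand. Capitals mark ACGTG or GCGTG on either strand. The sequence CACGTG holds ACGTG on both strands and is counted as 2 overlapping matches.
Eno2 (chr6:124769624-124769923, minus strand): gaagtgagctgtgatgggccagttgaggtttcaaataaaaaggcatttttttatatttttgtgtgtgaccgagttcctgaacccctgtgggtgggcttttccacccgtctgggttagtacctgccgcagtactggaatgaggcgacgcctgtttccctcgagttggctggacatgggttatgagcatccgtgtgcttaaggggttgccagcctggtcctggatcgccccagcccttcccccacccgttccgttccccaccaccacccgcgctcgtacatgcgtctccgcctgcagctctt
Pfkfb3 (chr2:11502041-11502340, minus strand): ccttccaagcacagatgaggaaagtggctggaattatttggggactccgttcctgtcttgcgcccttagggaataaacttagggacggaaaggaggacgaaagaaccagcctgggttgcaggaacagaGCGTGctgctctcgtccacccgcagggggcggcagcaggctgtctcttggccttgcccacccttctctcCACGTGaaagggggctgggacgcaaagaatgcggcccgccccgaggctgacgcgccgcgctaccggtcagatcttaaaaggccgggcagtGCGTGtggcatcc
Pfkfb3 (chr2:11553880-11554179, minus strand): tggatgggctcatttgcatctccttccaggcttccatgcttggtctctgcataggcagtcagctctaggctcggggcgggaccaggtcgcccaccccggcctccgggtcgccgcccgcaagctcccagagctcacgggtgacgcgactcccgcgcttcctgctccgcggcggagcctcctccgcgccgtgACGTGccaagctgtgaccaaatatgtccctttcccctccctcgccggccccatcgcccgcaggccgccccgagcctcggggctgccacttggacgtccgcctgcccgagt
Hk2 (chr6:82774405-82774704, minus strand): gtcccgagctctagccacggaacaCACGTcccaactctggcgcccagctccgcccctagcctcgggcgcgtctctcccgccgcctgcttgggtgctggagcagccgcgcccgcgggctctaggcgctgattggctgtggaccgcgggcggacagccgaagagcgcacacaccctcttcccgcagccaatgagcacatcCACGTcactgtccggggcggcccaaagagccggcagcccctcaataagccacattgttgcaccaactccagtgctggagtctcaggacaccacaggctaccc
Ldha (chr7:46845554-46845853, plus strand): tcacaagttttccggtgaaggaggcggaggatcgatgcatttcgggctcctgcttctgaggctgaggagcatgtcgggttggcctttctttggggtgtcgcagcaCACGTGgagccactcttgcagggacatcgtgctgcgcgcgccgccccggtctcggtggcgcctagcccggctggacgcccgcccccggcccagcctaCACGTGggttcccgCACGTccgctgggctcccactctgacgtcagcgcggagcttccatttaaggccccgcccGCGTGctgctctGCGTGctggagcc
The Eno2 window holds no match. Of the 2 Pfkfb3 windows, the upstream start at chr2:11553880-11554179 holds 1 match and the start within the gene holds 4. The Hk2 window holds 2 matches. The Ldha window shown holds 7 by this count, in which each CACGTG gives 2 matches. By the same count no other of the 58 member windows holds as many. A further Ldha window, at chr7:46846832-46847131, is not shown and holds 2. The Vegfa windows hold 0 matches at chr17:46032328-46032627 and 2 at chr17:46025114-46025413. The Pfkfb2 windows hold 1, 4 and 1. Of the 39 members with a window, 22 hold ACGTG in at least 1 window (56.4%), against 29.5% of the 8986 measured genes with a window and 21.8% of all 27025 genes with one. Either motif was present for 35 of these members (89.7%), against 67.4% of measured genes. A gene with several windows has more places for a match. Per window, ACGTG was in 44.8% of member windows, against 25.5% of the windows of measured genes. The shares for either motif were 77.6% and 61.4%. A match describes only the letters of the window, and neither binding nor an effect of these letters on a ratio was tested. No promoter window was printed for Slc2a3, which was not in the promoter table.

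PFKFB genes held the largest summed difference among the roles. Pfkfb3 encodes the isoform with the highest kinase to phosphatase activity, and so favours glycolytic flux (ENSMUSG00000026773, GRCm38 chromosome 2, 11471433 to 11554077, minus strand). It had 10563 counts (617 CPM) in the C57BL/6 library and 3498 counts (221 CPM) in the Ch25h-/- library. The Ch25h-/- level was 2.80-fold lower (log2 ratio -1.48, interval -1.54 to -1.43). Of all measured genes 2.61% had a ratio this low or lower, while only 3.16% had a mean CPM as high. Pfkfb3 was thus both high in CPM, which is not divided by length, and among the lowest ratios in these libraries. Pfkfb2, best known from heart (chromosome 1, 130689182 to 130729253, minus strand), stood at 14.2 CPM in C57BL/6 and 6.82 CPM in Ch25h-/-. Its log2 ratio of -1.06 has an interval of -1.40 to -0.73, so a difference smaller than 2-fold is within counting error.

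Annotated genes overlap Pfkfb2 on both strands, and it is not given in the sources used here if reads were counted by strand. The opposite-strand neighbour Yod1 had 24.8 and 28.5 CPM (0.20), while Gm29427, on the same strand, had 0 counts in both libraries. Pfkfb4, an isoform known for its response to hypoxia, went from 27.1 to 18.6 CPM (-0.54, interval -0.76 to -0.33). Pfkfb1, best known from liver and muscle, had 3.74 and 5.24 CPM, and its interval spanned 0 (-0.0017 to 0.98). Apex2, which overlaps Pfkfb1 on the opposite strand, had 13.5 and 16.3 CPM (0.27). The summed level of the 4 PFKFB genes was 662 CPM in C57BL/6 and 251 CPM in Ch25h-/- (-1.40, interval -1.45 to -1.34). Per kb of exon, Pfkfb3 made up 90.6% of the family in the C57BL/6 library and 82.8% in the Ch25h-/- library. Pfkfb4 made up 6.17% and 10.8%.

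**Figure D2:**
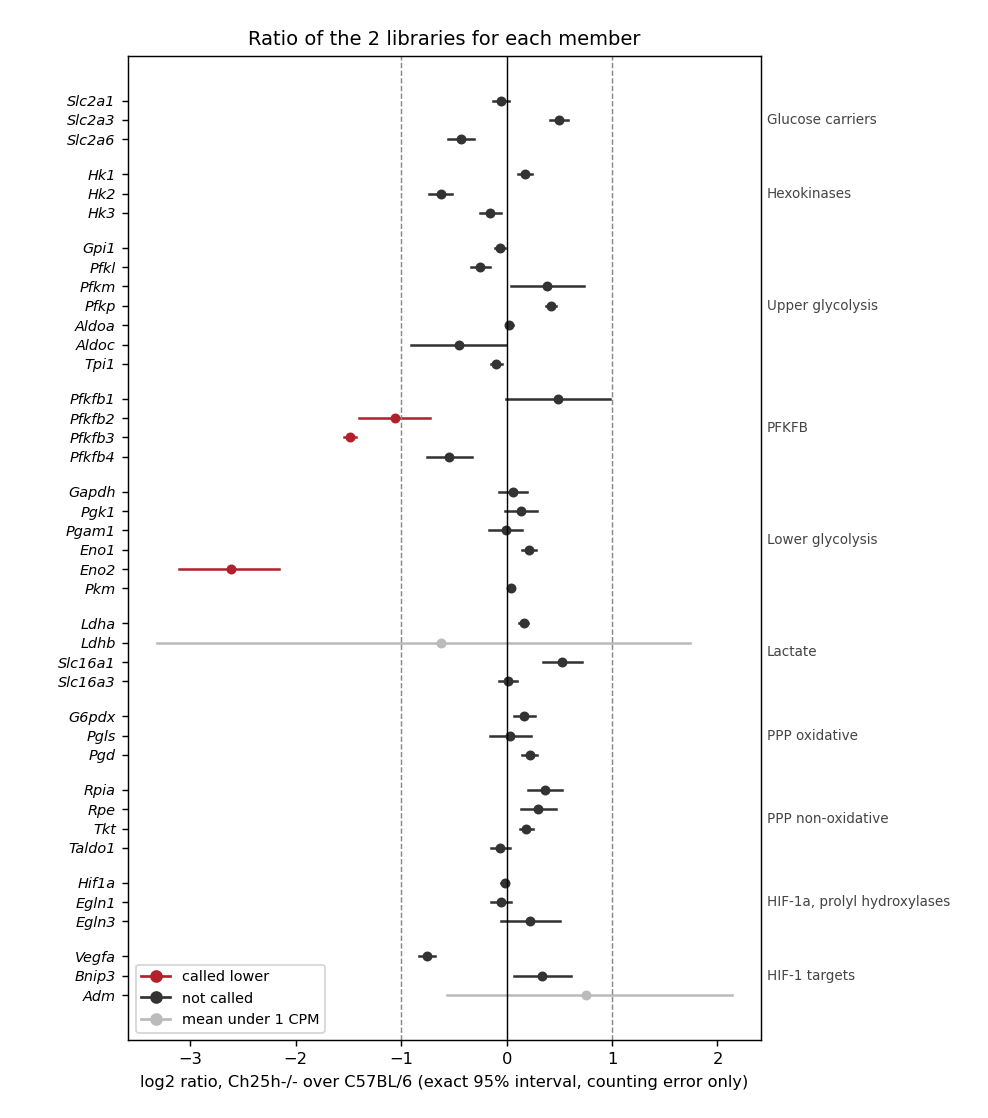
Log2 ratio of Ch25h-/- over C57BL/6 for each member, with exact 95% intervals for counting error, grouped by role. Dashed lines mark 2-fold. Pfkfb2, Pfkfb3 and Eno2 (red) are called lower, and the intervals of Ldhb and Adm (grey, mean under 1 CPM) are the widest.

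Glucose enters through facilitative carriers, and the 3 carrier genes differed from each other in direction while their sum was near level. The ubiquitous carrier gene Slc2a1 (GLUT1) had 173 CPM in C57BL/6 and 167 CPM in Ch25h-/- (-0.06, interval -0.13 to 0.02). The high-affinity carrier gene Slc2a3 (GLUT3), typical of neurons and lymphocytes, had 109 and 154 CPM (0.50, 0.41 to 0.58). Slc2a6 (GLUT6), described in inflammatory macrophages, had 73.8 and 54.7 CPM (-0.43, -0.56 to -0.31). Slc2a1 was the leading carrier gene per kb in both libraries, at 49.4 and 47.5 CPM per kb. Slc2a3 made up 17.3% of the summed level per kb in the C57BL/6 library and 24.8% in the Ch25h-/- library. The summed carrier counts gave a log2 ratio of 0.08 (0.02 to 0.13). Per kb of exon the sums were 87.5 and 85.8 CPM per kb (-0.03), so the sign depends on the measure.

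Hexokinases trap glucose in the cell as glucose 6-phosphate, and Hk2 was the gene of this step with the lowest ratio. Hk2, the inducible isoform, went from 101 to 65.3 CPM (-0.63, interval -0.74 to -0.51). Hk1, the housekeeping isoform, had 198 and 223 CPM (0.17, 0.10 to 0.24). Hk3, an isoform of myeloid cells, had 103 and 92.6 CPM (-0.15, -0.25 to -0.05). Per kb, Hk2 made up 24.8% of hexokinase level in the C57BL/6 library and 17.6% in the Ch25h-/- library, and Hk1 made up 34.1% and 42.0%. Hkdc1, a further hexokinase gene, had 0 counts in both libraries. All hexokinase counts together gave a log2 ratio of -0.08 (-0.13 to -0.03).

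The committing enzyme PFK-1 is a tetramer of liver, muscle and platelet type subunits, and the balance between the platelet and liver types differed. The platelet type gene Pfkp had 372 CPM in C57BL/6 and 499 CPM in Ch25h-/- (0.42, interval 0.38 to 0.47). The liver type gene Pfkl had 148 and 124 CPM (-0.25, -0.33 to -0.16). The intervals of these 2 genes lie on opposite sides of 0. Pfkm, the muscle type, was low at 7.54 and 9.85 CPM (0.39, 0.04 to 0.73). Senp1, which overlaps Pfkm on the opposite strand, had 130 and 149 CPM (0.20), and its part in the Pfkm counts was not tested. Per kb, Pfkp made up 53.2% of PFK-1 level in the C57BL/6 library and 63.3% in the Ch25h-/- library. The summed PFK-1 counts gave 0.26 (0.22 to 0.31), and the sums per kb gave 0.17. The summed counts of PFK-1 and of its PFKFB regulators thus lay on opposite sides of 0. Single genes differed, with Pfkl below 0 and Pfkfb1 above 0 (interval spanning 0).

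The other upper glycolytic genes differed little. Gpi1, which turns glucose 6-phosphate into fructose 6-phosphate, had 471 and 452 CPM (-0.06, interval -0.11 to -0.02). The main aldolase gene Aldoa was the most abundant member per kb, at 268 and 273 CPM per kb, and its interval spanned 0 (0.03, -0.01 to 0.06). Aldoc, the brain type, was low at 6.14 and 4.48 CPM (-0.45, -0.91 to -0.01). Triose phosphate isomerase (Tpi1) had 347 and 324 CPM (-0.10, -0.15 to -0.04).

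In lower glycolysis, 5 of the 6 genes lay within 0.5 of 0 and the sixth, Eno2, was the lowest of all members. Eno2 encodes the gamma enolase best known from neurons (ENSMUSG00000004267, chromosome 6, 124760053 to 124769673, minus strand). It had 298 counts (17.4 CPM) in the C57BL/6 library and 45 counts (2.84 CPM) in the Ch25h-/- library, 6.13-fold lower (-2.62, interval -3.10 to -2.16). Only 0.443% of measured genes had a ratio this low or lower. The ubiquitous enolase gene Eno1 had 228 and 264 CPM (0.21, 0.15 to 0.28), and with its expressed copy Eno1b added the ratio was 0.19. The muscle enolase gene Eno3 had 22.3 and 18.9 CPM (-0.24, -0.46 to -0.02). Eno2 made up only 6.28% of the level per kb of Eno1, Eno2 and Eno3 in the C57BL/6 library (0.995% in the Ch25h-/- library). The summed counts of these genes were thus near level at 0.09 (0.04 to 0.15). Eno1b, at 26.5 CPM per kb in C57BL/6 and 28.6 in Ch25h-/-, is not in these sums.

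Pyruvate kinase (Pkm), which makes pyruvate and ATP in the last step, had 1139 and 1171 CPM (0.04, interval 0.01 to 0.07). Per kb it stood at 228 and 234 CPM per kb, below Aldoa alone among the members. Gapdh, the oxidative step of glycolysis, had 58.6 and 61.1 CPM (0.06, -0.07 to 0.19), or 14.2 and 14.8 CPM per kb. Phosphoglycerate kinase (Pgk1) had 42.9 and 47.2 CPM (0.14, -0.01 to 0.29), and with the counts of its copy Pgk1-rs7 added the ratio was 0.20 and the interval no longer spanned 0 (0.06 to 0.34). Phosphoglycerate mutase (Pgam1) had 40.9 and 40.7 CPM (-0.01, -0.16 to 0.15). Many copies of these genes lie elsewhere in the genome. Of the 50-base stretches in Gapdh transcripts, 25.1% also occur in transcripts of other annotated genes, among them 209 pseudogenes. The shares were 53.9% for Pgk1, 36.2% for Pgam1, 26.0% for Eno1, 25.8% for Pkm and 47.2% for Bnip3, against 0.376% for Pfkfb3 and 0.136% for Eno2. For Pfkfb2 the share was 17.3%, mostly with the overlapping gene Gm29427. How reads that match several places were counted is not given in the sources used here. The levels of these genes are therefore uncertain, and the part of shared sequence in them was not tested.

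Pyruvate becomes lactate through lactate dehydrogenase and leaves through monocarboxylate carriers. Ldha had 486 and 544 CPM (0.16, interval 0.12 to 0.21). The lactate exporter gene Slc16a3 (MCT4), typical of glycolytic cells, was level at 126 and 128 CPM (0.01, -0.08 to 0.10). Slc16a1 (MCT1), which also imports lactate, had 23.8 and 34.4 CPM (0.53, 0.34 to 0.72), the highest ratio of the measured members. Per kb, Slc16a1 made up 18.5% of the pair in the C57BL/6 library and 24.5% in the Ch25h-/- library. Ldha made up 99.9% of lactate dehydrogenase level per kb in both libraries.

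**Figure D3:**
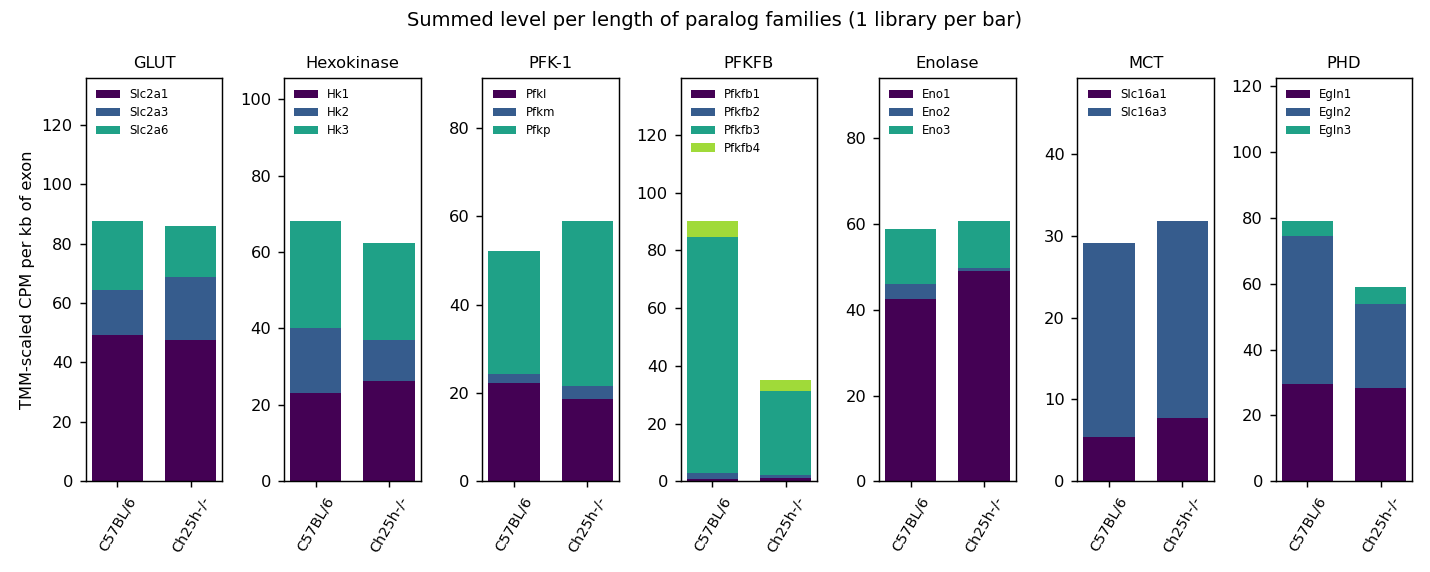
TMM-scaled CPM per kb of exon, stacked by gene, for 7 families of paralogs, with 1 library per bar and 1 axis per panel. The families are glucose carriers, hexokinases, PFK-1, PFKFB, enolases (without Eno1b), monocarboxylate carriers and prolyl hydroxylases. The PFKFB stack goes from 90.1 to 35.3 CPM per kb, and the prolyl hydroxylase stack from 78.9 to 59.1 CPM per kb.

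Of the 7 pentose phosphate genes 6 had a ratio above 0, as did 6203 of all 11972 measured genes, and none was as large as 2-fold. The interval lay wholly above 0 for 5 of the 7 (31.0% of all measured genes). Glucose 6-phosphate dehydrogenase (G6pdx), the entry enzyme and a source of NADPH, had 99.0 and 111 CPM (0.17, interval 0.07 to 0.27). The gene overlaps Ikbkg on the opposite strand, which had 77.8 and 71.0 CPM. The lactonase gene Pgls had 25.6 and 26.3 CPM (0.04, -0.16 to 0.23). The second NADPH-producing enzyme gene, Pgd, had 179 and 208 CPM (0.22, 0.15 to 0.29). Together the oxidative genes gave a log2 ratio of 0.19 (0.13 to 0.24).

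The non-oxidative arm converts pentoses back to glycolytic sugars. Ribose 5-phosphate isomerase (Rpia) had 34.2 and 44.1 CPM (0.37, interval 0.21 to 0.53). The epimerase gene Rpe had 31.4 and 38.8 CPM (0.30, 0.13 to 0.47). Transketolase (Tkt) had 223 and 254 CPM (0.19, 0.12 to 0.25). Transaldolase (Taldo1) was the exception in direction, at 129 and 124 CPM (-0.06, -0.15 to 0.03). Over both arms the summed counts gave 0.16 (0.13 to 0.20), and the median of the 7 genes was 0.19. The 8 cell cycle markers were all above 0 as well, with a summed level of 1250 CPM in C57BL/6 and 2272 CPM in Ch25h-/-. Their part in the pentose phosphate values was not tested.

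The HIF-1 alpha gene itself was level. Hif1a had 796 CPM in C57BL/6 and 786 CPM in Ch25h-/- (-0.02, interval -0.05 to 0.02). These are RNA levels, and HIF-1 is controlled mainly through protein stability, which was not measured. The main prolyl hydroxylase gene Egln1 (PHD2) had 106 and 102 CPM (-0.05, -0.15 to 0.04). Egln3 (PHD3), itself a HIF-1 target, had 12.2 and 14.2 CPM (0.22, -0.05 to 0.50). The family member outside the list, Egln2 (PHD1), had 126 and 70.9 CPM (-0.82, -0.93 to -0.72). Egln2 made up 56.8% of prolyl hydroxylase level per kb in the C57BL/6 library and 42.9% in the Ch25h-/- library.

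The HIF-1 targets went both ways. Vegfa, the angiogenic growth factor gene (chromosome 17, 46016993 to 46032369, minus strand), went from 230 to 137 CPM (-0.75, interval -0.83 to -0.67). The mitophagy receptor gene Bnip3 had 12.7 and 16.0 CPM (0.34, 0.07 to 0.61). A list of further HIF targets had 22 measured genes, with a median of -0.10. Of these, 2 were called lower (9.09%, against 5.77% of all measured genes) and 1 higher (background 2.07%). Among those called lower was the lipase inhibitor gene Angptl4, which went from 2.98 to 1.45 CPM (-1.04). The carbonic anhydrase gene Car12 rested on 13 and 26 counts (1.11, 0.10 to 2.19). The highest CPM of the list belonged to Ndrg1, with 609 and 394 CPM (-0.63), and then Ero1l, with 130 and 163 CPM (0.32). Among 12 measured regulators of HIF, only Hif3a was called lower, on 41 and 12 counts (-1.66, -2.73 to -0.71), and Arnt, the HIF-1 beta gene, had 119 and 110 CPM (-0.11).

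Other genes of glucose metabolism were mostly near level. Over all 9 lists of other pathway genes, 107 of 133 genes were measured, and the median was 0.02. Of these, 5 were called lower (4.67%, against 5.77% of all measured genes) and 2 higher (background 2.07%). These counts lie near the background, and in lists of 6 to 16 genes an absence of calls does not set a list apart. The D-lactate dehydrogenase gene Ldhd (16.3 and 5.18 CPM, -1.66) and the galactose mutarotase gene Galm (3.21 and 1.39 CPM, -1.21) were called lower among 11 measured glycolytic enzyme genes, of which those with the highest CPM were Adpgk (48.2 and 58.8 CPM, 0.29) and Eno1b (49.8 and 53.7 CPM, 0.11). The carrier gene Slc2a10 was called higher on 9 and 34 counts (2.03, 0.94 to 3.27), while Slc37a2 (43.1 and 44.2 CPM) and Slc37a1 (37.8 and 44.0 CPM) led the list of other sugar carriers. None of 16 measured genes of pyruvate entry into mitochondria was called, where the carrier chaperone genes Emb (227 and 211 CPM, -0.11) and Bsg (150 and 165 CPM, 0.14) had the highest CPM. None of 14 tricarboxylic acid cycle genes was called, and their median was 0.06, with Ogdh at 247 and 265 CPM (0.10) and Cs at 200 and 233 CPM (0.22). None of 11 glycogen genes (median 0.06, Pygb at 99.9 and 105 CPM, Gyg at 94.2 and 83.9 CPM) or of 9 measured further pentose and NADPH genes (median 0.09, Nadk at 178 and 165 CPM, H6pd at 52.0 and 51.8 CPM) was called. Of 6 measured glucose sensing genes none was called, but Txnip, which limits glucose uptake, had 470 and 308 CPM (-0.61, -0.66 to -0.56) and its factor gene Mlxip had 739 and 588 CPM (-0.33).

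**Figure D4:**
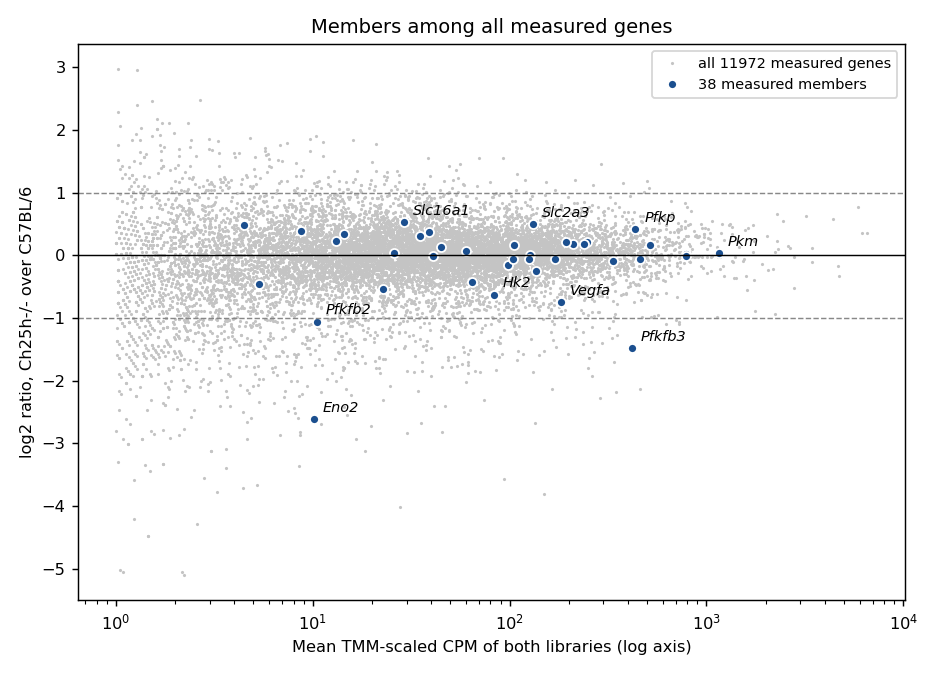
Log2 ratio of Ch25h-/- over C57BL/6 against mean TMM-scaled CPM (log axis) for all 11972 measured genes (grey) and the 38 measured members (blue), with dashed lines at 2-fold. Most members lie in the dense band around 0, and Pfkfb3 (-1.48) lies below it at a high mean level.

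Markers of several cell types differed more than the glycolytic genes did, and they are given here beside the members with low and high ratios. Over all measured genes, 5.77% were called lower. All 9 mature dendritic cell markers were below 0 and 8 were called lower, with a summed level of 2288 CPM in C57BL/6 and 707 CPM in Ch25h-/- (-1.70). Those with the highest CPM were Fscn1 (746 and 171 CPM) and Ccr7 (413 and 109 CPM). Of 11 conventional dendritic cell markers 8 were measured and 6 were called lower, with sums of 786 and 540 CPM, and Xcr1 was at 0 counts in the C57BL/6 library. Red pulp macrophage markers were below 0 for 11 of 12 genes, and marginal zone macrophage markers for all 5 measured of 6, with Cd209b at 0 counts in both libraries. All 7 B cell markers were below 0 and 1 was called lower (median -0.61), with sums of 1264 and 788 CPM. All 6 plasma cell markers were below 0 and 4 were called lower (median -1.15), with sums of 481 and 389 CPM. T cell markers lay on both sides, 4 below 0 and 4 above. Eno2, at -2.62, lies below the range of the mature dendritic cell markers (-2.30 to -0.66) and within that of the conventional ones (-2.66 to 0.30). Pfkfb3, at -1.48, lies within both of these ranges. It also lies within those of red pulp macrophage (-2.06 to 0.72), marginal zone macrophage (-1.56 to -0.14) and plasma cell markers (-1.59 to -0.10). These ranges are wide and overlap, so a ratio that lies within them cannot tell these cell types apart. The part of these cells in the values of Pfkfb3, Eno2, Pfkfb2, Hk2 and Vegfa was not tested.

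On the other side, all 10 NK cell markers were above 0, and their sum had a log2 ratio of 0.69. All 10 neutrophil markers were above 0, with sums of 1136 and 2069 CPM. Of 8 Ly6C-high monocyte markers 7 were above 0, with sums of 2266 and 3297 CPM. Of 10 Ly6C-low monocyte markers, the cells nearest to the gate, 7 were below 0 (median -0.32), although their sums were 2632 and 3107 CPM. Ly6g, which the gate excludes, stood at 8 and 41 counts. The measured members with the highest ratios, Slc16a1 (0.53), Slc2a3 (0.50), Pfkfb1 (0.49, interval spanning 0) and Pfkp (0.42), lie below the medians of the NK cell list (0.73) and the neutrophil list (0.97). The part of these cells in the members' values was not tested.

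**Figure D5:**
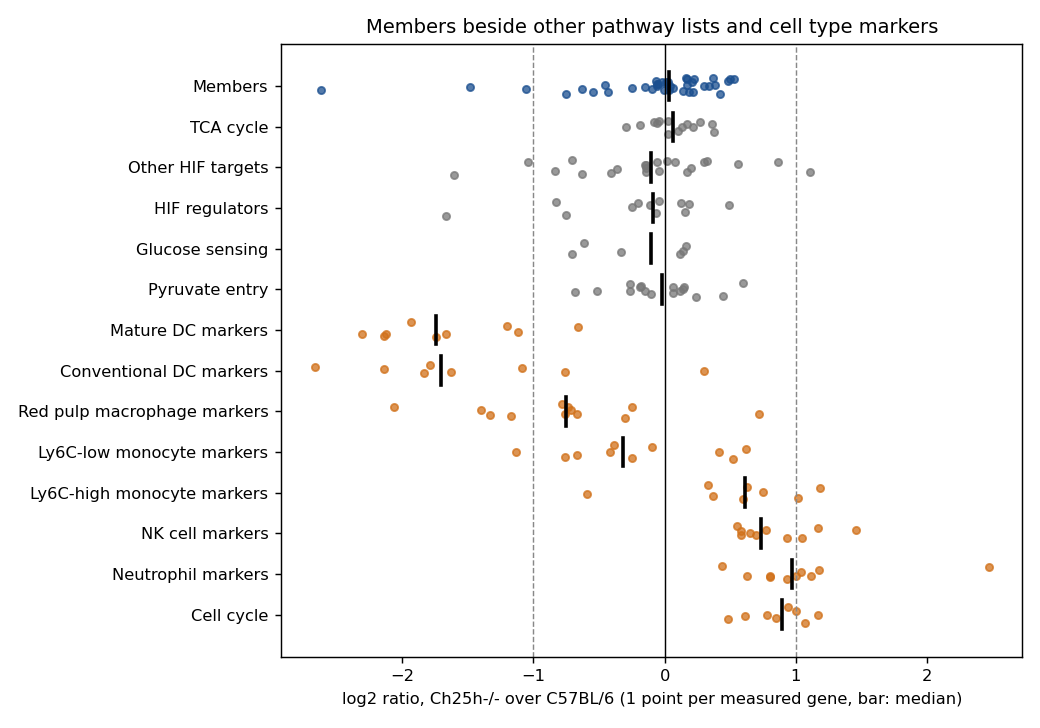
Log2 ratio of Ch25h-/- over C57BL/6 for each measured gene (points) of the members (blue), 5 pathway lists (grey) and 8 marker lists (orange), with the median of each list as a bar. The members' median (0.03) is near 0, those of both dendritic cell lists are near -1.7, and that of the neutrophil list is 0.97.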

How the data were processed

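RNA from the 2 sorted samples was prepared with TRIzol, and the library kit was KAPA RNA HyperPrep, per the labels' protocols. The authors deposited raw counts of reads per gene in 1 table, and both of its columns were analysed without change. Per the submitters' processing notes, the builds were GRCm38 and mm10, and the tools included edgeR 3.26.8, Subread 1.5.2 with featureCounts, the aligner GSNAP and FastQC 0.11.9. Strand setting and the treatment of multiply matching reads are not given in the sources used here.

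TMM factors (1.01 for C57BL/6, 0.991 for Ch25h-/-) were computed over all genes with edgeR 4.0.16 in R 4.3.3 and used for CPM. Intervals are Clopper-Pearson intervals of 1 library's share of both counts (scipy 1.17.1, numpy 2.4.6, pandas 2.3.3, Python 3.11.15), and figures used matplotlib 3.10.9. The intervals treat each read as an independent count and cover counting error only. Reads carry no molecular identifiers, so repeated reads of 1 molecule could not be recognised, and the intervals may be too narrow. The distance from centre to bound was about 0.715 (log2, median) at 1 to 5 CPM and 0.0941 at 50 CPM or more. No p-value was computed, as each genotype has 1 library. A count of 0 was set to a floor of 3 counts, and no member needed it.

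Positions and union exon lengths come from GENCODE M21 (GRCm38), which holds 30126 of the 30538 gene IDs. Shared sequence was counted as exact 50-base stretches on either strand of GENCODE M21 transcripts. All 40 members are named. Of the other pathway lists, the called genes and the 2 with the highest mean CPM are named, except 1 called gene that is counted but not reported here, and further genes were chosen after their values were seen. The members and lists were chosen with earlier results of these data known. The alternatives tried were scaling by upper quartile, by total counts or by size factors of DESeq2 1.42.0, leaving out antigen receptor, haemoglobin, S100a8/S100a9 and mitochondrial genes, filters at 5 CPM or 1 count, a prior count of 2, an interval wholly beyond 2-fold, shares without length, and rows of named retrocopies added.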

Additional observations from a re-analysis of the deposited data

How the results depend on the processing

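The count of 3 members called lower and 0 called higher held under all scalings, filters and the prior count tried. With an interval wholly beyond 2-fold 2 remained lower, and Pfkfb2 was the member lost. Over all genes, 248 higher and 691 lower calls became 120 and 347 with the filter at 5 CPM (1.19% and 3.44% of measured genes). They became 67 and 318 with the stricter interval (0.560% and 2.66%), and 435 were higher with no filter beyond 1 count. Scalings moved members' ratios by at most 0.03, and only Pgam1 and Slc16a3, both near 0, changed sign. All 267 recomputed member ratios stayed within their counting intervals. With no filter beyond 1 count the HIF-1 target median went from -0.21 to 0.34, because Adm enters, and the lactate median from 0.16 to 0.087, because Ldhb enters.

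Without mitochondrial genes in the total, the members' share was 0.775% in the C57BL/6 library and 0.741% in the Ch25h-/- library. Shares of counts not divided by length, C57BL/6 before Ch25h-/-, were 93.2% and 87.8% for Pfkfb3, 70.5% and 78.8% for Pfkp, 30.7% and 41.1% for Slc2a3, 15.9% and 21.2% for Slc16a1, and 51.5% and 37.9% for Egln2, each in the same direction between libraries as per kb. No paired analysis was possible because each genotype has 1 library. For the same reason no library could be left out, and variation between mice, sorts or preparations is unknown. Differences in members under 5 CPM were not detectable at this depth unless large.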
